A study of Danio rerio with 6 samples.

Results

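The Distal-less (dlx) genes of the zebrafish encode homeodomain transcription factors, and 8 of them were examined here with hand2, a basic helix-loop-helix factor gene that acts beside them in the pharyngeal arches. The members were the probe sets whose platform gene symbol is dlx1a, dlx2a, dlx2b, dlx3b, dlx4a, dlx4b, dlx5a, dlx6a or hand2. Each of the 9 genes had exactly 1 probe set, out of 15502 probe sets that are not array controls. The arrays compared whole embryos of the Tu strain kept in leflunomide at 6.5 uM with embryos kept in the solvent DMSO, with exposure starting during gastrulation, at 50% epiboly, and ending at an age of 24 hours. Leflunomide, given against rheumatoid arthritis, blocks the de novo synthesis of pyrimidines through its active metabolite. There were 3 arrays of total RNA in each group, and neither group carried a labelled mutation or transgene. The labels speak of each sample as an embryo and do not say whether embryos were pooled or came from separate clutches, so the spread behind the p-values is that of these 6 samples and may be technical.

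Dlx genes lie mostly as linked pairs that share regulatory elements. In the ventral forebrain, dlx1a, dlx2a, dlx5a and dlx6a are known for their part in making GABAergic neurons. In the pharyngeal arches, dlx genes are switched on in cranial neural crest cells, and their nested expression, driven in the ventral part by the ligand endothelin 1, helps to tell lower jaw from upper jaw skeleton. The pair dlx3b and dlx4b is also known from the border of the neural plate, where it is required for the otic and olfactory placodes, and hand2 is required for the ventral arches, the heart and the fin buds. In the gene order of the RefSeq annotation of the assembly GRCz12tu, dlx1a lies next to dlx2a, dlx3b next to dlx4b, and dlx5a next to dlx6a. By contrast, dlx2b, dlx4a and hand2 had no other member as a neighbour.

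All values are log2 values of a probe set on an array, centred so that the median over the 6 arrays is 0. A difference is the leflunomide mean minus the DMSO mean, and a level is known only as a coarse band recovered from the rounding of the values. The median level of hand2 lay between 8 and 16 and that of each of the 8 dlx genes between 4 and 8, so all 9 passed the filter of at least 4. For dlx2b the band was the least certain, with a likelihood share of 0.706 against 0.98 or more for the others. In all, 12628 probe sets were tested with limma, and 21.0% of them passed an adjusted p of 0.05. In whole embryos, fewer cells of a type and less RNA per cell cannot be told apart.

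Markers of several tissues were read beside the members. A median level of at least 4 was found for all 5 muscle, 5 red cell and 4 notochord markers present on the array. It was also found for 12628 of the 15502 probe sets that are not array controls, so it says little about these tissues. Of the marker lists, those of muscle and red cells were the most changed, with medians of -5.39 and -4.05 on the log2 scale. Cranial crest markers had a median of -1.29 (4 of 5 fell) and neuron markers one of -1.27 (5 of 6 fell). Of the neuron calls, those of gap43 and tubb5 held in all 6 fits that left out 1 array. That of stmn1b held in 4, and those of elavl4 and snap25a in 1. At other probe sets, tubb5 was not called (-0.335) and stmn1b was lower (-0.575). The epidermis markers had a median of 0.18, and 0 of 4 were called by limma. At an unadjusted limma p under 0.05, 1 of them was higher and 1 lower. Of the RNA quality controls, the difference between 3' and 5' probe sets was 1.24 higher after leflunomide for acta1, itself a muscle transcript, and changed by -0.66 for gapdh. Whether these shifts bear on the values of the dlx genes and hand2 was not tested, and whole embryos do not show in which tissue a dlx transcript changed.

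After leflunomide 1 dlx gene was called lower, and none was called higher. Of the 9 genes, 1 passed the limma test, dlx2a, with an adjusted p of 0.0341, or 11.1% of the members against 21.0% of all tested probe sets. For decreases alone the background was 11.0% of all tested probe sets, so the share of members called lower was at the background. By limma 0 of the 9 were higher, 0 also at an unadjusted p under 0.05, against 9.95% called higher of all tested. The median difference of the 9 genes was -0.21, against 0.04 over all tested probe sets. Of the 8 dlx genes, 6 had a negative and 2 a positive difference. The leflunomide and DMSO arrays did not overlap for 4 of the 9 genes, 44.4%, close to the 41.1% of all tested probe sets. An unadjusted p under 0.05 was reached by 3 genes, dlx1a, dlx2a and dlx2b, against 35.6% of all tested probe sets.

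**Figure D1:**
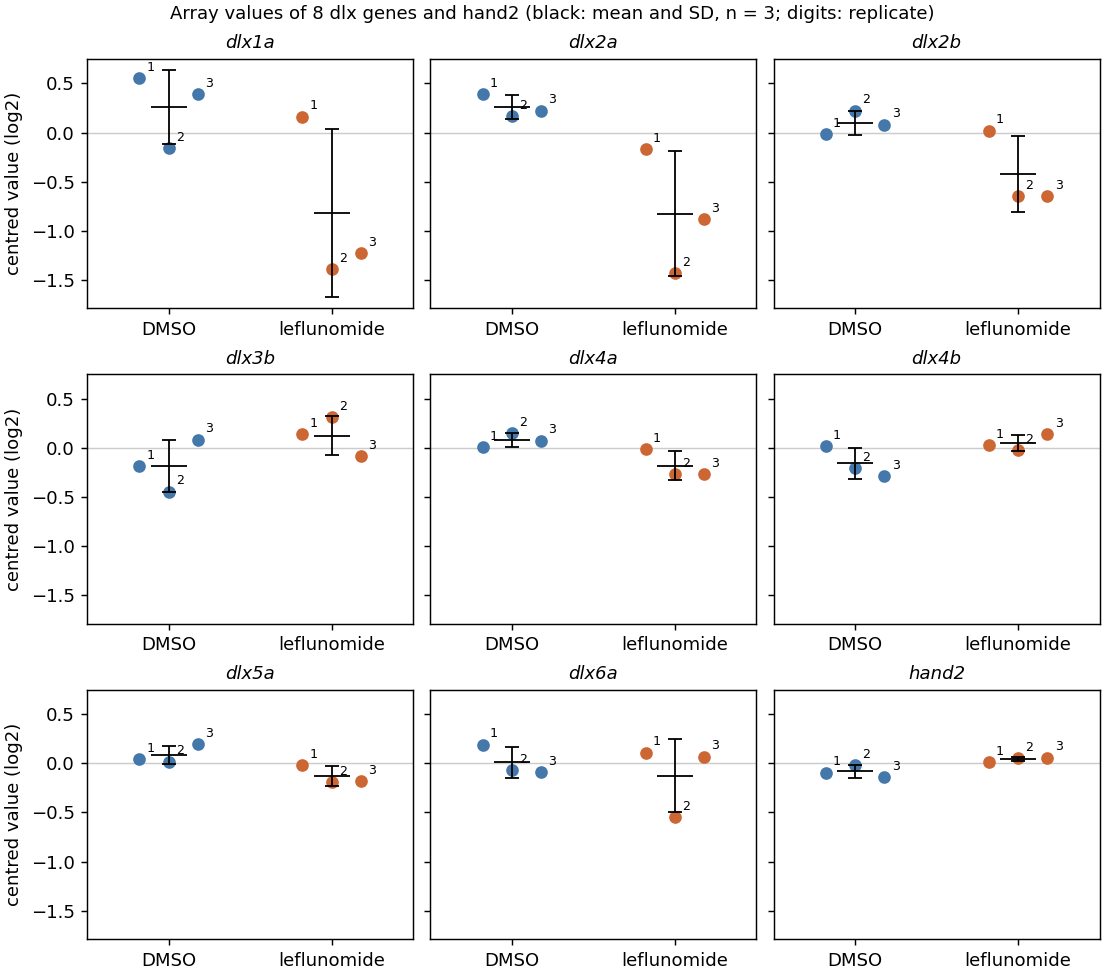
Centred log2 values (vertical axis) of the 8 dlx genes and hand2 on each array, with DMSO in blue and leflunomide in orange; digits are replicate numbers, and black marks are the mean and SD of 3 arrays. For dlx1a, dlx2a and dlx2b, leflunomide arrays 2 and 3 lie far below the DMSO arrays while leflunomide array 1 lies near them; hand2 stays between -0.14 and 0.06 on all 6 arrays.

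The gene dlx2a is expressed in the crest cells of the arches and in the ventral forebrain. Its values were 0.39, 0.17 and 0.22 on DMSO arrays 1 to 3 and -0.17, -1.43 and -0.88 on leflunomide arrays 1 to 3. Every leflunomide array was below every DMSO array, and the leflunomide arrays were spread over a wider range. The mean fell from 0.26 ± 0.12 to -0.83 ± 0.64 (SD, n = 3 and 3), a log2 difference of -1.09 (SE 0.28, 2.12-fold lower, limma adjusted p = 0.0341). This call held in only 1 of the 6 fits that left out an array, that without leflunomide array 1, where the difference was -1.42 (adjusted p = 0.00242). It was lost without DMSO array 1 (adjusted p = 0.109), DMSO array 2 (adjusted p = 0.084), DMSO array 3 (adjusted p = 0.104), leflunomide array 2 (adjusted p = 0.0596) or leflunomide array 3 (adjusted p = 0.0723), each by limma.

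Its neighbour dlx1a, with which dlx2a shares forebrain and arch expression, had almost the same mean difference without passing the test. It read 0.55, -0.16 and 0.39 in DMSO and 0.16, -1.39 and -1.23 in leflunomide. Leflunomide arrays 2 and 3 were more than 1 log2 unit below every DMSO array, and leflunomide array 1 lay inside the DMSO range. The log2 difference was -1.08 (SE 0.40, 95% interval -2.01 to -0.15, limma adjusted p = 0.0959). Among the leflunomide arrays the SD was 0.85, and only 1.09% of tested probe sets had an SD there as large or larger; the median SD was 0.16. Without leflunomide array 1, dlx1a passed the test with a difference of -1.57 (limma adjusted p = 0.0032).

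The third gene of this kind was dlx2b, the second zebrafish copy of dlx2, which has no linked dlx partner. It read -0.02, 0.22 and 0.08 in DMSO and 0.02, -0.64 and -0.65 in leflunomide. Again leflunomide array 1 lay inside the DMSO range and the other two well below it. The log2 difference was -0.52 (SE 0.19, 95% interval -0.96 to -0.07, limma adjusted p = 0.0933). In the fit that left out leflunomide array 1 it was called, at -0.74 (limma adjusted p = 0.00641). With that array left out, 3 of the 9 genes were lower, against a background of 11.6% lower among all tested probe sets. In each of the other 5 fits that left out an array, 0 of the 9 were called by limma (1 to 3 at an unadjusted p under 0.05).

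The other linked pair of the forebrain and arches, dlx5a and dlx6a, showed small values. In the arches both belong to the ventral program downstream of endothelin 1, and both are also expressed in the fin fold. Centred values of dlx5a were 0.04, 0.02 and 0.19 in DMSO and -0.02, -0.19 and -0.18 in leflunomide. The groups did not overlap, but the gap between them was small. The log2 difference was -0.22 (SE 0.11, 95% interval -0.46 to 0.03, limma adjusted p = 0.191). For dlx6a the DMSO arrays read 0.19, -0.07 and -0.09 and the leflunomide arrays 0.11, -0.55 and 0.07. Leflunomide array 2 alone was low, and the other two lay inside the DMSO range. Its log2 difference of -0.13 (SE 0.19, 95% interval -0.58 to 0.31, limma adjusted p = 0.67) turned to 0.08 without leflunomide array 2.

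The unlinked gene dlx4a, an arch gene, read 0.009, 0.15 and 0.07 in DMSO and -0.009, -0.27 and -0.27 in leflunomide. The groups did not overlap, although leflunomide array 1 and DMSO array 1 nearly met. Its log2 difference was -0.26 (SE 0.11, 95% interval -0.52 to 0.003, limma adjusted p = 0.145).

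The placode pair dlx3b and dlx4b had the only positive differences among the dlx genes, and neither passed the test. For dlx3b the DMSO arrays read -0.19, -0.45 and 0.08 and the leflunomide arrays 0.14, 0.32 and -0.08. The groups overlapped through DMSO array 3 and leflunomide array 3. The log2 difference was 0.31 (SE 0.17, 95% interval -0.08 to 0.69, limma adjusted p = 0.229), and 0.18 without DMSO array 2. For dlx4b the values were 0.02, -0.21 and -0.29 in DMSO and 0.03, -0.02 and 0.14 in leflunomide. Only DMSO array 1 reached the leflunomide range. The log2 difference was 0.21 (SE 0.12, 95% interval -0.06 to 0.48, limma adjusted p = 0.246).

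The gene hand2 varied least of all the members. It read -0.10, -0.02 and -0.14 in DMSO and 0.02, 0.06 and 0.06 in leflunomide. All leflunomide arrays were above all DMSO arrays, by a very small margin. The log2 difference was 0.13 (SE 0.09, 95% interval -0.09 to 0.34, limma adjusted p = 0.385), and 97.8% of tested probe sets had an SD among the leflunomide arrays as large or larger than its 0.02. With 75th percentiles of the arrays aligned, the difference was 0.07.

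**Figure D2:**
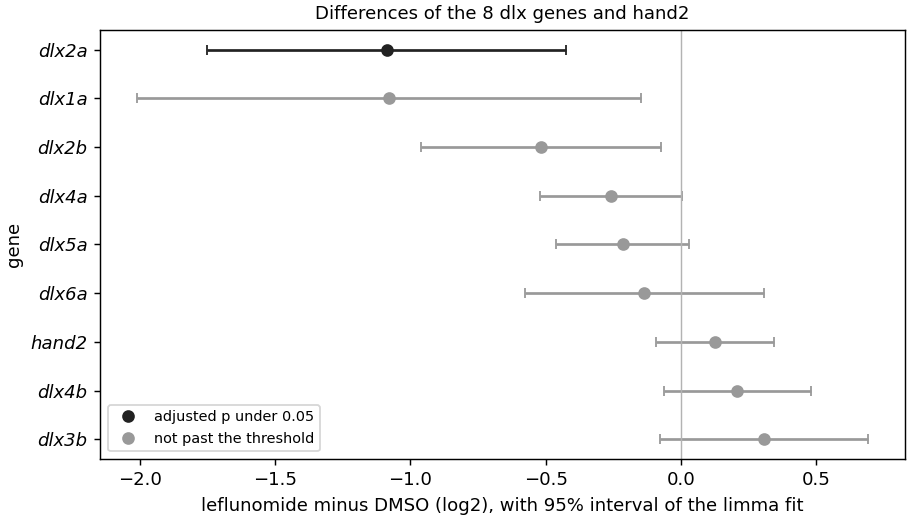
Leflunomide minus DMSO difference on the log2 scale (horizontal axis) of each gene (vertical axis), with the unadjusted 95% interval of the limma fit on 3 and 3 arrays. Only dlx2a (black) passed an adjusted p of 0.05; the intervals of dlx1a and dlx2b lie below 0 and those of the other 6 genes, dlx4a among them, include 0.

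Whether linked partners responded differently was asked for the 3 pairs from the difference between the partners on each array. For dlx1a minus dlx2a the change from DMSO to leflunomide was 0.01 (SE 0.26, exact two-sided permutation p = 1.0). For dlx3b minus dlx4b it was 0.10 (SE 0.26, exact permutation p = 0.9), and for dlx5a minus dlx6a it was -0.08 (SE 0.22, exact permutation p = 0.8). After adjustment over the 3 pairs each exact p was 1.0. The smallest p such a test allows with 3 arrays against 3 is 0.1. It could therefore not have reached the threshold for a difference between partners of any size.

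The arrays of leflunomide differed among themselves in the genes that were lower. Measured from the DMSO mean, dlx1a was at -0.10 on leflunomide array 1 and at -1.65 and -1.49 on arrays 2 and 3. The same values were -0.43, -1.69 and -1.14 for dlx2a, and -0.08, -0.74 and -0.74 for dlx2b. All 6 dlx genes with a negative difference had their highest leflunomide value on array 1. That was so for 43.7% of all tested probe sets with a negative difference and for 67.0% of those called lower. The neuron, muscle and red cell marker lists were likewise nearer to DMSO on array 1, as was the sympathetic list (-0.075, -0.373 and -0.1). Several other lists were not. Medians on the 3 leflunomide arrays were -0.60, -1.52 and -1.44 for the neuron markers, -4.05, -5.51 and -5.59 for the muscle markers and -3.03, -4.75 and -4.36 for the red cell markers. They were 0.353, -0.013 and 0.212 for the notochord markers and 0.129, 0.19 and 0.125 for the epidermis markers. The forebrain list had -0.215, -0.082 and -0.309, and the arch list -0.24, -0.24 and -0.151. Most genes of both lists were not called. Of the forebrain genes called lower, tbr1b, eomesa, gad1b, ascl1a and pax6a were nearest to DMSO on array 1, the last by a very small margin. By contrast, nkx2.1 was nearest on array 3 and sox2 on array 2. For the gapdh control, the 3' minus 5' difference was -0.11, -0.76 and -0.91 on leflunomide arrays 1 to 3, against -0.09 to 0.18 in DMSO. For acta1 it was 0.48, 0.64 and 0.63, against -0.87 to -0.48 in DMSO, so it was shifted on array 1 as well. Over all 6 neuron markers, the list medians of the centred values were 0.30 to 0.53 in DMSO and -1.14 to -0.27 in leflunomide. The cranial crest markers had medians of -1.27, -1.30 and -1.30. Among them crestin stood at -2.43, -3.67 and -3.66, foxd3 at -1.27, -1.64 and -1.72, and sox10 at -0.83, -0.92 and -0.99. Values of twist1a were even over the arrays, and tfap2a was nearest to DMSO on array 3. No summed level of these lists can be given, since the values are centred. The part of these lists and of the gapdh and acta1 controls in the values of the dlx genes was not tested.

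**Figure D3:**
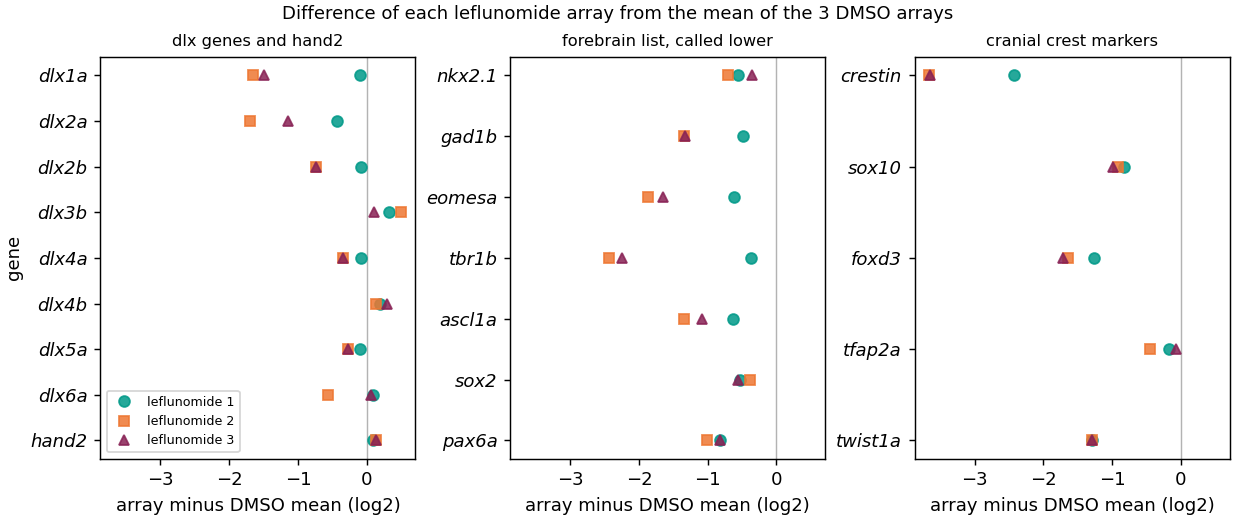
Difference of each leflunomide array from the mean of the 3 DMSO arrays (horizontal axis, log2) for the dlx genes and hand2, for the forebrain list genes called lower, and for the cranial crest markers; circles, squares and triangles are leflunomide arrays 1, 2 and 3. On array 1, dlx1a and dlx2b lie at -0.10 and -0.08. Of the crest markers, twist1a lies at -1.29 on array 1 and -1.30 on arrays 2 and 3. By contrast, crestin, foxd3 and sox10 lie nearest to the DMSO mean on array 1, and tfap2a on array 3.

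Genes of the tissues that express dlx genes were read from lists, each gene by 1 probe set, against a background of 22.0% called among 7814 genes, 11.3% lower and 10.6% higher. In the forebrain list 7 of 22 tested genes fell in limma, 0 rose and 15 did not pass, with a median of -0.15 against 0.05 over all genes. With limma p under 0.05 before adjustment, 7 were lower and 1 higher. pax6a, a factor of dorsal forebrain and eye progenitors, fell by 0.88 (SE 0.10, limma adjusted p = 0.0021). ascl1a, a proneural factor, fell by 1.02 (SE 0.17, limma adjusted p = 0.00821), and both were called in all 6 fits without 1 array. eomesa, a T-box factor of the dorsal telencephalon, fell by 1.38 (SE 0.30, limma adjusted p = 0.018). gad1b, which encodes an enzyme that makes the transmitter GABA, was 2.08-fold lower (limma adjusted p = 0.0239), with values from its DMSO mean of -0.48 on leflunomide array 1 and -1.34 on each of the others. sox2, a factor of neural progenitors, fell by 0.49, with -0.50 and -0.002 at its other probe sets, which were not called, and nkx2.1, of the ventral forebrain, fell by 0.54. The calls of eomesa and sox2 held in 3 of those 6 fits, and those of gad1b and nkx2.1 in 1. The other GABA enzyme gene, gad2, had a difference of -0.25 (limma adjusted p = 0.236).

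The forebrain gene with the most uneven arrays, tbr1b, a T-box factor of the dorsal telencephalon named here after its values were seen, fell by 1.69 (SE 0.50, limma adjusted p = 0.0489). Its call held in 1 of the 6 fits without 1 array. It stood at -0.37 on leflunomide array 1 and at -2.44 and -2.25 on arrays 2 and 3. The number of forebrain genes lower was 2 without DMSO array 1 or 2, 3 without DMSO array 3, and 4 without leflunomide array 2 or 3.

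In the endothelin and arch patterning list 5 of 21 tested genes fell in limma, 0 rose and 16 did not pass, with a median of -0.21. At an unadjusted limma p under 0.05, 10 were lower and 0 higher. twist1a, a factor of arch crest, fell by 1.29 (SE 0.10, limma adjusted p = 0.000471). prrx1b, a homeobox gene of arch and limb mesenchyme, fell by 1.18 (SE 0.13, limma adjusted p = 0.00169). mef2ca, a muscle factor that is also needed in the ventral arches downstream of endothelin 1, was 3.75-fold lower (limma adjusted p = 0.00283). These 3 calls held in every fit without 1 array. epha4b, an ephrin receptor gene, and msx3, a homeobox gene, fell by 1.36 and 0.59, calls that held in 2 and 1 of those 6 fits. The msx3 probe set belongs by its ID to a cluster that also holds elavl3 probe sets, so the transcript it measured is uncertain. The other tested msx3 probe set was not called (-0.49, limma adjusted p = 0.0702). hoxb2a, a hox gene of the second arch and hindbrain, was not called at the probe set that stands for it (-0.24) and was lower at its other one (-0.64, limma adjusted p = 0.00495). edn1 itself, the ligand gene, read 0.14, 0.05 and 0.23 in DMSO and -0.17, -0.53 and -0.05 in leflunomide. Its arrays did not overlap, and its difference of -0.39 did not pass (SE 0.14, limma adjusted p = 0.093). The receptor gene ednraa had a difference of -0.03 (95% interval -0.35 to 0.29, limma adjusted p = 0.909). The count of genes lower was 3 without any 1 of the DMSO arrays and without leflunomide array 2.

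In the placode and otic vesicle list 4 of 18 tested genes fell, 1 rose and 13 did not pass, with a median of -0.00. Without adjustment, at a limma p under 0.05, 4 were lower and 3 higher. eya1, a transcriptional coactivator of placodes, fell by 1.47 (SE 0.13, limma adjusted p = 0.000964). otomp, an otolith matrix protein gene, fell by 1.93 (SE 0.21, limma adjusted p = 0.00164). atoh1a, the hair cell factor, fell by 0.70 (SE 0.12, limma adjusted p = 0.00863). sox9b fell by 0.56, with -0.13 at its other tested probe set, and was called in 1 of the 6 fits without 1 array. oc90, an otoconin gene of the ear, rose by 0.55 (limma adjusted p = 0.0228), which no longer passed once DMSO array 1, DMSO array 3 or leflunomide array 2 was left out. tfap2a, required for arch crest and placodes, had a difference of -0.23 (limma adjusted p = 0.224).

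Lists that include tissues that express hand2 outside the arches were short, at 13, 12 and 6 tested genes. The fin bud list also held ectoderm genes, such as krt4, krt5 and krt8. In each the share called was above the background of 22.0%, on small counts. In the fin bud and ectoderm list 3 of 13 fell, 1 rose and 9 did not pass, with a median of -0.07. Before adjustment, at a limma p under 0.05, 4 were lower and 4 higher. and1 and and2, actinodin genes of the fin fold, fell by 2.87 (SE 0.20, limma adjusted p = 0.000424) and 1.01 (SE 0.14, limma adjusted p = 0.00386). sp8b, a zinc finger factor gene, fell by 0.36 in a call lost in all 6 fits without 1 array, and bmp2b, a Bmp ligand gene, rose by 0.53 in a call that held in 2 of them. tbx5a, the fin bud and heart factor, had a difference of -0.07 (limma adjusted p = 0.747).

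In the heart list 2 of 12 fell, 1 rose and 9 did not pass, with a median of -0.01. An unadjusted limma p under 0.05 was reached by 2 lower and 4 higher genes. Beside mef2ca, hey2, a Notch target, fell by 0.40, and has2, which makes hyaluronan of the cardiac jelly, rose by 1.01 (SE 0.26, limma adjusted p = 0.0305). has2 was called in 2 of the 6 fits without 1 array and hey2 in 1. Among the genes not called, cmlc1 and myl7, named here after their values were seen, had differences of -1.525 and -1.138 (limma adjusted p = 0.16 each). From the DMSO mean, cmlc1 stood at 0.121, -1.57 and -3.125 on leflunomide arrays 1 to 3, and myl7 at 0.194, -1.433 and -2.176. Without leflunomide array 1, 4 heart genes were lower and 2 higher. In the sympathetic list 2 of 6 fell, 1 rose and 3 did not pass, with a median of -0.18. They were ascl1a, insm1b, a zinc finger gene of neuroendocrine precursors, which fell by 0.92 (SE 0.21), and gata2a, which rose by 0.68 (SE 0.15). insm1b was called in 3 and gata2a in 2 of the 6 fits without 1 array. In this list 2 genes were lower and 2 higher at an unadjusted limma p under 0.05.

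**Figure D4:**
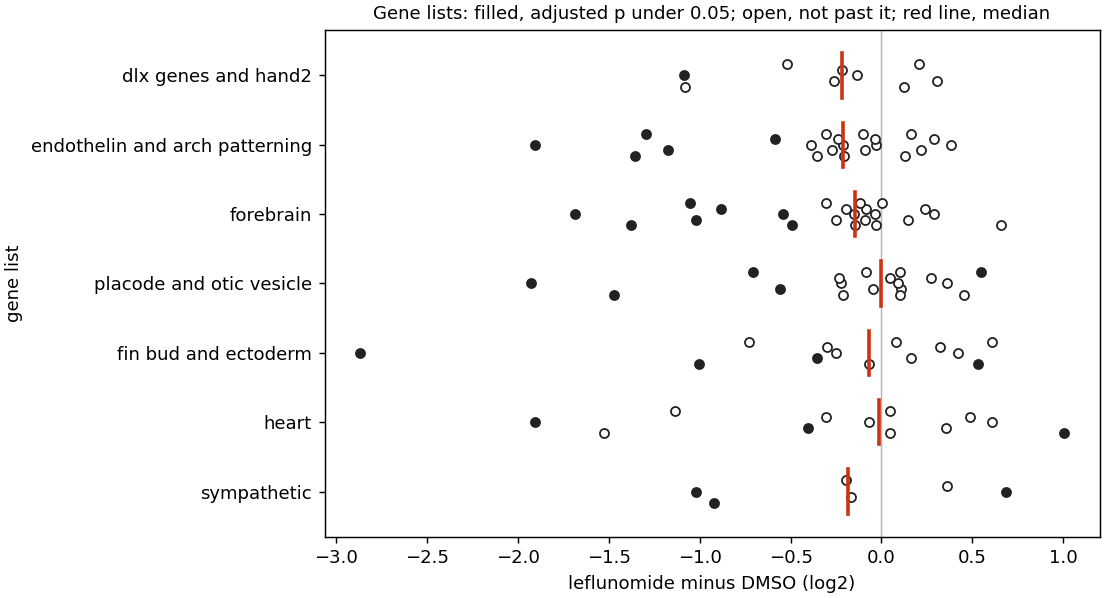
Leflunomide minus DMSO difference on the log2 scale (horizontal axis) of each tested gene, by list (vertical axis), with calls at an adjusted p of 0.05 filled and the list median in red. The medians run from -0.21 in the dlx and hand2 genes and the arch list to -0.00 in the placode list, and the largest fall is that of and1, at -2.87.

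Values over the 6 arrays were compared, by Euclidean distance, only with tested probe sets of 1 gene. Its symbol had to hold only lower-case letters, digits or dots. Closest to dlx2a among these were spon1b, a spondin gene of the floor plate (distance 0.12), hs6st1a, a heparan sulfate sulfotransferase gene (0.26), and rab11bb, a small GTPase gene (0.27). spon1b read 0.43, 0.23 and 0.17 in DMSO and -0.17, -1.36 and -0.85 in leflunomide. Closest to hand2 were rab2a (0.07), cnn3a (0.07) and ewsr1b (0.08), none of them called.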

How the data were processed

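The values in the deposited table are log2 values from GCRMA, the tool named in the submitters' processing notes (version not given in the sources used here). Each probe set has a median of 0 over its 6 values, within 5e-07, so the table was centred, a step no source states. Base 2 follows from the use of GCRMA, as no label gives it. Groups and replicate numbers came from the titles. Single-precision rounding steps differ between levels of 2 to 4, 4 to 8 and 8 to 16. The likeliest band of the median level was found from the steps of the values, 100.0% of which lay on such a step, leaving out values under 0.001 in size. The tests covered probe sets in the bands from 4 upward. Of 15617 probe sets 115 were array controls. The platform annotation named 1 gene for 10795, several for 135 and none for 4572; 10711 identifiers were found in the RefSeq table, which changed no member's symbol. Where a list gene had several probe sets, the one with the highest band, then the most specific suffix, then the first ID stood for it.

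Differences were fitted with limma 3.58.1 (lmFit, eBayes) in R 4.3.3, two-sided, with Benjamini-Hochberg adjustment over all 12628 tested probe sets and a threshold of 0.05. Intervals are unadjusted. The procedure was tested on simulated data with the residual spread of these probe sets. It recovered 24% of changes of 0.5 log2 units, 72% of those of 1, 100% of those of 2 and 98% of those of 4. Far fewer probe sets were changed in the simulation than were called in the data, so these rates need not hold for the members. A member without a call may still have changed. Among such members, the interval of dlx1a alone included a change of 1 log2 unit. Named were all members, up to 5 called genes per list, those of lowest adjusted p, genes fixed beside the lists, and the 3 nearest patterns of hand2 and dlx2a. The members and lists were chosen with earlier results of these data known. The number of arrays limits the precision. Neither batch nor date was used here. Alternatives covered the filter, scaling, variance model, array weights, replicate block, mean over probe sets, a threshold of 0.01 and each array left out. No sequences are printed, since none was used here.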

Additional observations from a re-analysis of the deposited data

How the results depend on the processing

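Of the 9 genes, 1 was called lower in the reported fit. Leaving out 1 array gave 0 to 3, the replicate block 2 and a threshold of 0.01 gave 0; no fit called a member higher, where the reported fit had 0. Without 1 array, dlx1a ran from -1.57 to -0.79, dlx2a from -1.42 to -0.78, dlx2b from -0.74 to -0.41 and dlx6a from -0.251 to 0.077. The other 5 genes kept their direction and missed the threshold in every fit run. At a level of at least 8 the dlx genes were not tested. Between partners without 1 array, dlx1a minus dlx2a ran from -0.15 to 0.19, dlx3b minus dlx4b from -0.033 to 0.298 and dlx5a minus dlx6a from -0.263 to 0.042.

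The replicate number as a block called dlx1a at the same difference of -1.08 (SE 0.23, limma adjusted p = 0.0267). Deviations of same-numbered arrays correlated at 0.333, 0.189 and 0.074, and each array correlated best with its own number. Deviations from a mean of 3 arrays are not independent, so this match cannot show that the numbers pair the samples. The labels do not pair them.

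Probe sets called in either direction numbered 2648, 1256 higher and 1392 lower. Without 1 array they ran from 1173 to 2855, higher from 437 to 1388 and lower from 736 to 1467. A level of at least 8 left fewer to test and gave 1283, 685 and 598, and a threshold of 0.01 gave 884, 296 and 588. With 75th percentiles aligned 1544 of 2505 calls were lower.

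Without 1 array, genes lower ran from 3 to 5 (arch), 2 to 6 (forebrain), 3 to 4 (placode), 2 to 3 (fin bud), 1 to 4 (heart) and 1 to 2 (sympathetic), and genes higher from 0 to 1 (forebrain, placode, sympathetic) and 0 to 2 (fin bud, heart). At a level of at least 8, genes lower were 3 (forebrain), 2 (placode), 1 (fin bud) and 1 (heart), and higher 0 (fin bud, heart, sympathetic). Genes higher were 1 in the forebrain list with quantile normalization, array weights, the replicate block or the mean over probe sets, 2 in the placode and sympathetic lists with that mean, 2 in the fin bud list with array weights or the block, and 2 in the heart list with array weights. The block left 1 heart gene lower. With the mean over probe sets or quantile normalization 7 arch genes were lower. The cause of these changes was not tested.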
